A study of Homo sapiens with 8 samples.

Results

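HLA class I molecules carry fragments of intracellular proteins to the surface of nearly all nucleated cells, where T cells read them. The genes described here are 9 parts of that pathway, chosen by symbol: the heavy chain genes HLA-B, HLA-C, HLA-E and HLA-F, the light chain gene B2M, the peptide transporter genes TAP1 and TAP2, and the immunoproteasome subunit genes PSMB8 and PSMB9. All 9 are among the 23391 genes of the count table, but only HLA-B, HLA-C, B2M and TAP2 reached 1 cpm (counts scaled to a common library size) in 2 or more libraries. These 4 are among the 13856 genes tested.

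RNA was sequenced from DU145 cells, an established human prostate cancer line that was stably transfected with the empty vector pcDNA3.1-zeo (DU145-pc3.1) or with the same vector carrying Esrrb (DU145-Esrrb). Esrrb is an orphan nuclear receptor, and DY131 is a synthetic ligand of Esrrb and its relative Esrrg. Each pool was sequenced without DY131 and after 3 µM DY131, which was given in medium containing charcoal-stripped serum. This gives 4 groups of 2 libraries, called biological replicates by the study. All 4 groups share the DU145 background, the vector backbone and Zeocin selection for 3 weeks. Each pool combines many transfected cells and is not a clone. The expression vector raises Esrrb far above its level in DU145-pc3.1 cells, so these groups model forced expression. By western blot the study judged the protein level comparable to that of HEK293 cells, which express Esrrb themselves. The time with DY131, and what the cells without it received, are not given in the sources used here. The p-values measure only the spread between these libraries.

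The libraries held 7858743 to 11551690 counted reads, with the fewest in the 2 libraries of DU145-Esrrb cells with DY131. ESRRB had 99 to 143 reads in each of the 4 DU145-Esrrb libraries and at most 3 in each DU145-pc3.1 library, so every library went with its labelled pool. The 5 epithelial markers (KRT8, KRT18, KRT19, EPCAM and CDH1) summed to between 2501 and 3163 cpm in every library. Of 5 leukocyte markers, CD3E was at 0 in all 8 libraries, and the sum of the list was 1.10 to 1.67 cpm without DY131 and 0.521 to 0.934 cpm with it. Of 2 luminal prostate markers, KLK3 was at 0 throughout and TMPRSS2 had too few reads to be tested, so prostate markers do not check the label.

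In this pathway the proteasome cuts proteins into peptides, and the immunoproteasome subunits PSMB8, PSMB9 and PSMB10 replace the constitutive PSMB5, PSMB6 and PSMB7 when cells meet interferon. TAP1 and TAP2 together pump the peptides into the endoplasmic reticulum, where tapasin, calreticulin, calnexin and PDIA3 help the heavy chain and B2M to bind one, and ERAP1 and ERAP2 trim it. HLA-B and HLA-C are classical, highly variable heavy chains, whereas HLA-E and HLA-F are non-classical and vary little. Loss of class I molecules is a well known route by which tumors escape T cells.

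The heavy chain genes are near copies of each other, and this bears on every count below. Their reference sequences are shown at the place where HLA-B and HLA-C are hardest to tell apart, a stretch of 96 bases around the longest run of identical bases in their coding sequences (66 bases, longer than a read of 50 bases). It lies in exon 3 of HLA-B on chromosome 6, chr6:31356286-31356381 on the minus strand of GRCh38 (GENCODE 29), and encodes part of the peptide-binding groove. The aligned stretches of the other genes follow, with capitals at the bases that differ from HLA-B.
HLA-B: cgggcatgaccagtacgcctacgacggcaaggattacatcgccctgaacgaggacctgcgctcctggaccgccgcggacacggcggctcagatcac
HLA-C: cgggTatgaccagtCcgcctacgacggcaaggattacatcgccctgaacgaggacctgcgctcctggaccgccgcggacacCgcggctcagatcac
HLA-E: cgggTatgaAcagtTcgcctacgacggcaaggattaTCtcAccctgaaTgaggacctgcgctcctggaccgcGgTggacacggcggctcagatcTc
HLA-F: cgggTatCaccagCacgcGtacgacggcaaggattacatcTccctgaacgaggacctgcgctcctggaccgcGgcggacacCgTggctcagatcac

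Within these 96 bases HLA-C differed from HLA-B at 3 positions, HLA-F at 8 and HLA-E at 10. The HLA-C stretch is chr6:31271192-31271287 on the minus strand, and those of HLA-E and HLA-F are chr6:30490301-30490396 and chr6:29724234-29724329 on the plus strand. Over their aligned coding sequences HLA-B and HLA-C shared 92.4% of bases, HLA-B and HLA-E 86.5%, and HLA-B and HLA-F 84.9%. Most 50-base windows of these genes still had no exact match in another annotated gene of the reference. Matches with mismatches were not counted, so how well reads separate these genes was not tested. Of the 50-base windows of the HLA-C transcript, 6.71% also occur in a transcript of another annotated gene on either strand. That share was 21.0% for HLA-B, of which 30 windows are also in HLA-C, and the annotated gene AL671883.2 shares the most with it. It was 5.76% for HLA-E, 28.6% for HLA-F, 15.2% for TAP1, 35.6% for TAP2, 28.9% for PSMB8, and 0% for B2M and PSMB9. The reference is 1 haplotype, the HLA alleles of DU145 were not analysed here, and the part of allele differences in these counts was not tested. How the authors' program treated strand and reads with several positions is not given in the sources used here.

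The sequences just before the start of HLA-B, HLA-C and B2M are shown because the levels of these genes are followed through all comparisons. RefSeq promoters on GRCh38.p14 were found for 8 of the 9 genes, HLA-E being the exception. Each run below holds the 250 bases before the start in the direction of the gene. Capitals mark any match, on either strand, to CCAAT (the box bound by the NF-Y factors, which act on class I promoters), GAAA, any 2 bases and GAAA again (the interferon-stimulated response element) or AAGGTCA (the core of the estrogen-related receptor element). The positions are chr6:31357180-31357429 and chr6:31272093-31272342, both on the minus strand, and chr15:44711267-44711516 on the plus strand.
HLA-B: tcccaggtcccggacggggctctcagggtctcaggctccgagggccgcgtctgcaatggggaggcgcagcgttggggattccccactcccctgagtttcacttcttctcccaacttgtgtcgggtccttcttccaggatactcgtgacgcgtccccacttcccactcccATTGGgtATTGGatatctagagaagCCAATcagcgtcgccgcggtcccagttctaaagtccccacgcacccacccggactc
HLA-C: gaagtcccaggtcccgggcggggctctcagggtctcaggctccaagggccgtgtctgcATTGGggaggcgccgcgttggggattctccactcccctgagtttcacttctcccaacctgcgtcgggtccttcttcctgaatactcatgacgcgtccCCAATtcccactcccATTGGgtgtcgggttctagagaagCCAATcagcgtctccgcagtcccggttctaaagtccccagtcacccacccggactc
B2M: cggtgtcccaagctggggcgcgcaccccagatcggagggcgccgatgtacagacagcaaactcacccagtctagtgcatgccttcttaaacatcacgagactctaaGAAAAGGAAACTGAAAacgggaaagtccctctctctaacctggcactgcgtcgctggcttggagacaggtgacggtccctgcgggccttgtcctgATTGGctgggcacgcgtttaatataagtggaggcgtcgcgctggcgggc

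HLA-B held 3 matches to CCAAT and HLA-C 4, with one in each at bases -56 to -52. B2M held 1 match to CCAAT and 2 to the interferon element, which overlap each other between bases -144 and -129. The interferon element, as the exact pattern given above, also occurred before HLA-F, TAP1 and TAP2. Near matches were not counted, so its absence before HLA-B and HLA-C concerns this pattern only. AAGGTCA occurred before none of the 8 genes. Among 35116 promoters of the same length, 32.0% held CCAAT, 3.02% the interferon element and 3.44% AAGGTCA. These matches describe letters in 1 window and say nothing of binding.

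B2M had the highest counted level of the 9 genes, and HLA-C stood above HLA-B. In DU145-pc3.1 cells without DY131, B2M was at 877 ± 4.73 RPKM, which is cpm per kilobase of transcript (SD, n = 2), HLA-C at 44.7 ± 4.91, HLA-B at 11.7 ± 0.244 and TAP2 at 0.210 ± 0.0119 RPKM. The order B2M, HLA-C, HLA-B and TAP2 was the same in all 4 groups, and no 2 neighbours in it overlapped in any group. RPKM were computed here with the length of the longest coding transcript that matched the gene.

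HLA-B (NM_005514; chromosome 6 from 31353872 to 31357187 in GRCh38) was at 18.3 and 17.8 cpm in the 2 DU145-pc3.1 libraries without DY131 and at 9.41 and 11.2 cpm in DU145-Esrrb libraries. With DY131 it was at 17.5 and 20.6 cpm in DU145-pc3.1 and at 17.6 and 16.8 cpm in DU145-Esrrb cells. The 2 libraries of DU145-Esrrb cells without DY131 were the lowest and did not overlap with the other 6. Their reads numbered 111 and 122, against 135 to 208 in the others.

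HLA-C (NM_001243042; chromosome 6 from 31268749 to 31272086) was at 74.8 and 64.0 cpm in DU145-pc3.1 and at 51.6 and 46.3 cpm in DU145-Esrrb cells without DY131. With DY131 it was at 58.2 and 65.1 cpm in DU145-pc3.1 and at 64.2 and 65.0 cpm in DU145-Esrrb cells. The same 2 libraries were the lowest again, and the other 6 ranged from 58.2 to 74.8 cpm.

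B2M (NM_004048; chromosome 15 from 44711517 to 44718145) is the one gene of the 9 outside chromosome 6, and its light chain is needed for every class I molecule to reach the surface. Without DY131 it stood at 824 and 830.3 cpm in DU145-pc3.1 and at 759.9 and 748 cpm in DU145-Esrrb cells. With DY131 it was at 607 and 803 cpm in DU145-pc3.1 and at 553 and 597 cpm in DU145-Esrrb cells. The DU145-pc3.1 libraries with DY131 were far apart, and replicate 1 lay near the DU145-Esrrb libraries with DY131.

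TAP2 (NM_000544; chromosome 6 from 32825410 to 32838770) had 9 to 26 reads in a library. It was at 1.24 and 1.14 cpm in DU145-pc3.1 and at 0.848 and 0.827 cpm in DU145-Esrrb cells without DY131, and at 2.43 and 1.49 cpm and at 1.17 and 1.81 cpm with it. In the library with 26 reads the 95% Wilson interval ran from 1.67 to 3.59 cpm of the library total, and in the DU145-Esrrb library with 9 reads and no DY131 from 0.443 to 1.60 cpm. Wilson intervals and floors cover counting error only, since these reads carry no molecular identifiers.

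The other 5 genes had almost no reads. HLA-E and PSMB8 were at 0 in all 8 libraries, HLA-F had 1 read in all, PSMB9 had 5 and TAP1 had 7, with at most 2 of any of them in a library. A floor of 3 reads corresponds to 0.260 to 0.382 cpm in these libraries. No difference between the groups could be detected for these genes at this depth, and no fold change is given. HLA-E and HLA-F present peptides and ligands to natural killer cell receptors, TAP1 is the partner without which TAP2 does not transport, and PSMB8 and PSMB9 are 2 of the 3 catalytic subunits of the immunoproteasome.

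**Figure D1:**
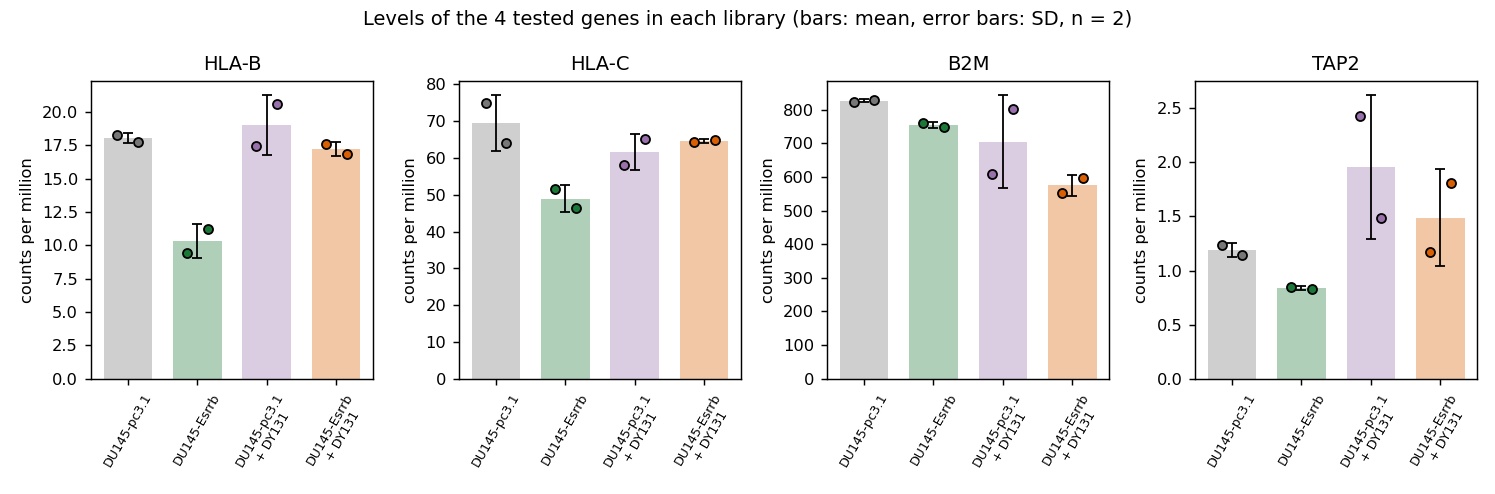
Levels in cpm (vertical axes, from 0) of HLA-B, HLA-C, B2M and TAP2 in the 4 groups; points are libraries, bars the mean and error bars the SD of 2 libraries. HLA-B and HLA-C were lowest in the DU145-Esrrb libraries without DY131, and B2M was lowest in the DU145-Esrrb libraries with DY131.

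These low counts went with the genes' position. Of the 9 genes, 8 lie between 28.5 and 33.5 Mb of chromosome 6 (GRCh38), in the major histocompatibility complex, and these bounds were set after the counts were seen. Of 166 protein-coding genes of the table placed in this interval, 100 (60.2%) were at 0 in all 8 libraries and 20 (12.0%) could be tested. On the rest of chromosome 6, 11.7% of 677 genes were at 0 in all libraries and 67.9% were tested, and over 18922 placed genes these shares were 14.3% and 67.3%. In the 4 Mb after the interval 2 of 59 genes were at 0, and in the 4 Mb before it 17 of 96.

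The genes at 0 in the interval include ones that every cell uses. RPS18, which encodes a protein of the small ribosomal subunit, had no read in any library, while 74 of 75 ribosomal protein genes of the table had over 1000 reads each. VARS, GNL1, ABCF1, FLOT1, PPP1R10, MRPS18B, RING1, EHMT2 and LSM2 were also at 0 in all libraries, and CLIC1 and CSNK2B had 1 and 3 reads. Other genes of the interval had many, such as the tubulin gene TUBB with 4830 and BRD2 with 483 reads over the 8 libraries. A 0 for HLA-E, HLA-F, TAP1, PSMB8 or PSMB9 in this table therefore does not show that the gene was silent in DU145 cells. HLA-B, HLA-C and TAP2 lie in the same interval, and whether their reads are incomplete as well was not tested. Their levels against B2M and against each other are therefore uncertain. The genome release hg18, to which the reads were mapped, also carries alternative sequences of the histocompatibility complex, and whether they were used is not given in the sources used here. Their part in these counts was not tested.

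**Figure D2:**
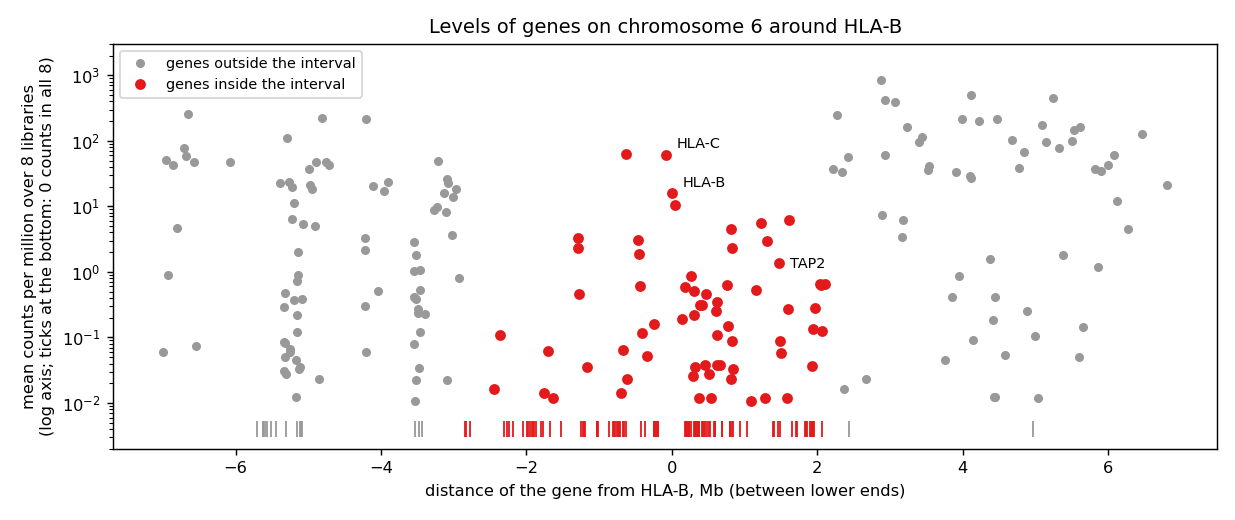
Mean cpm over the 8 libraries (log axis) of genes on chromosome 6, by their distance from HLA-B in Mb; red marks genes of the interval from 28.5 to 33.5 Mb, grey the genes beside it, and ticks at the bottom are genes with 0 reads in all 8 libraries. Within the interval 100 of 166 genes had no read.

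The first comparison asks what Esrrb does to these genes without added ligand. HLA-B and HLA-C fell in DU145-Esrrb cells, while B2M and TAP2 did not pass the test. The test was the quasi-likelihood F test of edgeR, fitted on all 8 libraries, with p-values adjusted by the Benjamini-Hochberg method over all 13856 tested genes. A gene is said to have risen or fallen at an adjusted p below 0.05. HLA-B was at 10.3 ± 1.27 cpm in DU145-Esrrb and 18.0 ± 0.378 cpm in DU145-pc3.1 cells (SD, n = 2 each), a log2 fold change of -0.81 ± 0.13 (SE; edgeR, adjusted p = 0.00223) or a fold of 0.571. HLA-C was at 48.9 ± 3.71 against 69.4 ± 7.63 cpm, a log2 fold change of -0.50 ± 0.09 (edgeR, adjusted p = 0.00393) or a fold of 0.706. B2M differed by -0.13 ± 0.09 (edgeR, adjusted p = 0.505) and TAP2 by -0.50 ± 0.44 (edgeR, adjusted p = 0.633) on the log2 scale.

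In these bulk libraries fewer expressing cells and less RNA per cell cannot be told apart. So 2 of 4 tested members fell and 0 rose, where 4.18% of all tested genes changed and 2.50% fell. No member passed both the adjusted p and an absolute log2 fold change of 1, the thresholds of the study, which 0.577% of all tested genes passed. Each call was lost in some fit that left out 1 library. Such a fit leaves 1 library in a group, so a lost call does not show that it depended on that library. Without DU145-Esrrb replicate 1 the change of HLA-B was -0.69 on the log2 scale. Without DU145-pc3.1 replicate 1 that of HLA-C was -0.39, and without DU145-Esrrb replicate 2 it was -0.43.

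DY131 in DU145-pc3.1 cells, which lack the transgene, is the background for the ligand. With all 8 libraries, 0 of the 4 tested members passed the quasi-likelihood test, the exact test of edgeR or DESeq2. By the quasi-likelihood test 37.4% of all tested genes passed, and 4.19% (580 genes) also passed the fold threshold. The study, which used the exact test, reported that DY131 without Esrrb altered no gene. The reason for this difference was not tested. B2M came nearest, with 705 ± 138 cpm with DY131 and 827 ± 4.46 without (SD, n = 2 each), a log2 difference of -0.23 ± 0.09 (edgeR, adjusted p = 0.0579). HLA-B differed by 0.08 ± 0.12, HLA-C by -0.17 ± 0.09 and TAP2 by 0.72 ± 0.38 on the log2 scale. The count of 0 members depended on the settings, and it rose in some fits that left out 1 library. Such a fit leaves 1 library in a group, so only its effect sizes are given. Without replicate 2 with DY131, B2M was at -0.45, HLA-C at -0.25 and TAP2 at 1.02 on the log2 scale. For B2M that library stood at 803 cpm and the one kept at 607 cpm, so this fit leaves out the spread between them. Without replicate 2 that received no DY131, HLA-C was at -0.28. With library totals alone, no filter, or 10 or more reads asked of each library, B2M passed. At an unadjusted p under 0.05 the count was 1, again B2M.

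DY131 in DU145-Esrrb cells moved 3 of the 4 tested members, and not in 1 direction. HLA-B and HLA-C rose and B2M fell. HLA-B went from 10.3 ± 1.27 to 17.2 ± 0.535 cpm (SD, n = 2 each), a log2 fold change of 0.74 ± 0.14 (edgeR, adjusted p = 0.000317) or 1.67-fold. HLA-C went from 48.9 ± 3.71 to 64.6 ± 0.511 cpm, by 0.40 ± 0.09 (edgeR, adjusted p = 0.00157) or 1.32-fold. B2M went from 754 ± 8.62 to 575 ± 30.97 cpm, by -0.39 ± 0.09 (edgeR, adjusted p = 0.00184) or 0.762-fold. TAP2 differed by 0.84 ± 0.44 (edgeR, adjusted p = 0.117). Of all tested genes 58.7% changed, 29.2% rose and 29.5% fell, so a count of 3 in 4 is near the background. No member reached an absolute log2 fold change of 1, which 12.0% of the tested genes passed together with the adjusted p.

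In a comparison this broad, a feature of the libraries moved with the changes. The log2 fold change of a gene was correlated with the share of its 50-base windows that cross an exon junction (Spearman's rho -0.377 across 13606 genes, which are not independent replicates), against -0.0373 for Esrrb without DY131 and 0.00986 for DY131 in DU145-pc3.1 cells. That share is 21.8% for HLA-B, 22.7% for HLA-C, 14.1% for B2M and 10.4% for TAP2, with a median of 14.4% over the tested genes. With an offset that removes this trend, HLA-B changed by 0.87, HLA-C by 0.55 and B2M by -0.41 on the log2 scale, and all 3 passed the test.

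With DY131 in DU145-Esrrb cells other genes of the chromosome 6 interval rose as well. Of 17 other tested genes there, 9 rose and 3 fell, where 29.2% and 29.5% of all tested genes did. Their median log2 fold change was 0.73 and that of all tested genes -0.0045. With Esrrb alone, where HLA-B and HLA-C fell, 0 of the 17 changed, where 4.18% of all tested genes did. With DY131 in DU145-pc3.1 cells 0 rose and 2 fell, where 37.4% of all tested genes changed. TUBB rose by 1.33 and MICA, a stress-induced ligand of natural killer cells, by 1.39, while HLA-DQB1 fell by 2.48 on the log2 scale. HLA-DQB1 had 12 reads in the 2 libraries of DU145-Esrrb cells with DY131. Larger values rested on few reads, such as 6.78 ± 1.09 for HSPA1B and -5.21 ± 1.62 for DDX39B (SE). These genes had 33 and 51 reads over all 8 libraries. Many of the reads on other genes of the interval were of TUBB, with a mean of 62.2 cpm over the 8 libraries. Together these other genes made up 89.0 to 97.1 cpm in the 6 other libraries. In the 2 libraries of DU145-Esrrb cells with DY131 they made up 190.5 and 176 cpm. The part of this shift in the change of HLA-B and HLA-C was not tested.

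Between the DU145-Esrrb and DU145-pc3.1 cells that both received DY131, HLA-B and HLA-C were at like levels. HLA-B was at 17.2 ± 0.535 and 19.0 ± 2.23 cpm (a log2 difference of -0.15 ± 0.13), and HLA-C at 64.6 ± 0.511 and 61.6 ± 4.91 cpm (0.07 ± 0.09). B2M was lower in DU145-Esrrb cells, by -0.29 ± 0.09 (edgeR, adjusted p = 0.0148), and TAP2 differed by -0.38 ± 0.38. That is 1 of 4 tested members, where 50.4% of all tested genes changed, 25.3% fell and 8.21% also passed the fold threshold. The call for B2M did not hold with DESeq2 (adjusted p = 0.0907). It was also lost without DU145-pc3.1 replicate 2 with DY131 (-0.079) or without library a of DU145-Esrrb cells with DY131 (-0.25). Those fits leave 1 library in a group.

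Against DU145-pc3.1 cells without DY131, the DU145-Esrrb cells with DY131 had less B2M and about as much HLA-B and HLA-C. B2M was lower by -0.52 ± 0.09 on the log2 scale (edgeR, adjusted p = 0.000158), at 575 against 827 cpm. HLA-B differed by -0.07 ± 0.13 (edgeR, adjusted p = 0.669), HLA-C by -0.10 ± 0.09 (edgeR, adjusted p = 0.337) and TAP2 by 0.34 ± 0.42 (edgeR, adjusted p = 0.503). Again 1 of 4 tested members passed, where 59.3% of all tested genes changed, 30.1% fell and 12.8% also passed the fold threshold. This comparison shares its control libraries with the first 2 and its treated libraries with the others, so the 5 pairs are not independent of each other.

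An interaction term of the model asked whether DY131 acted differently in the 2 pools. For HLA-B the effect of DY131 was higher in DU145-Esrrb than in DU145-pc3.1 cells by 0.66 ± 0.19 on the log2 scale (edgeR, adjusted p = 0.0126), and for HLA-C by 0.57 ± 0.13 (edgeR, adjusted p = 0.00302). For B2M the difference was -0.16 ± 0.13 (edgeR, adjusted p = 0.365) and for TAP2 0.12 ± 0.58 (edgeR, adjusted p = 0.896). Of all tested genes 33.7% passed this test, 16.1% toward a higher effect, and 6.28% also passed the fold threshold. HLA-B no longer passed with DESeq2 (0.66, adjusted p = 0.0813). Its call was also lost without DU145-Esrrb replicate 1 (0.54) or without library a of DU145-Esrrb cells with DY131 (0.63). Those fits leave 1 library in a group. For B2M the sign depended on 1 library: without DU145-pc3.1 replicate 1 with DY131 the difference was -0.36, and without replicate 2 it was 0.055.

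**Figure D3:**
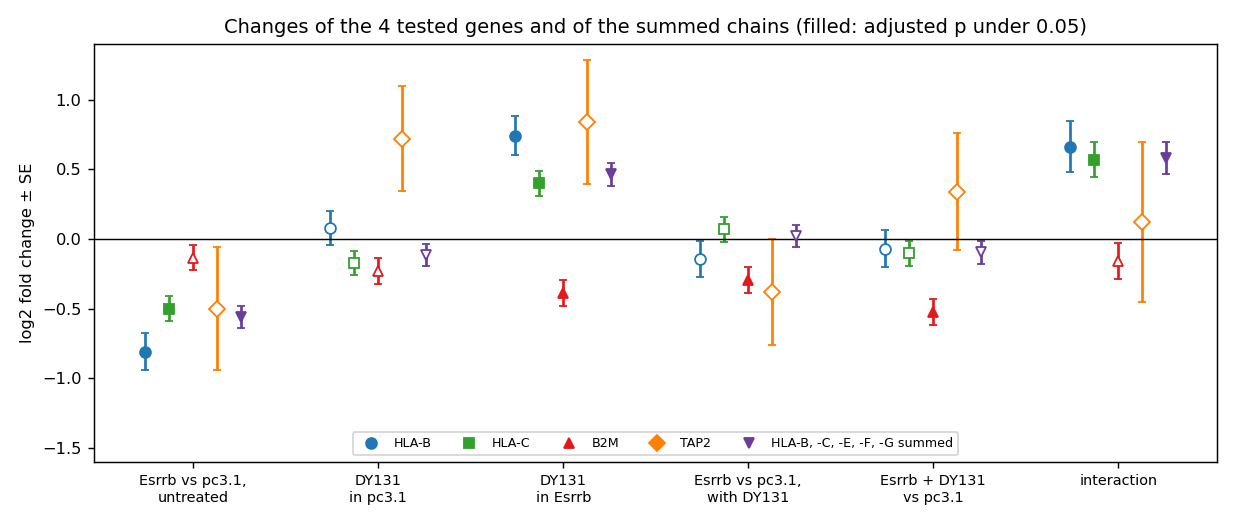
Log2 fold changes ± SE of HLA-B, HLA-C, B2M, TAP2 and the sum of HLA-B, HLA-C, HLA-E, HLA-F and HLA-G in the 6 comparisons; filled symbols passed an adjusted p of 0.05. HLA-B and HLA-C were below 0 with Esrrb and above 0 with DY131 in DU145-Esrrb cells, and B2M was below 0 in all 6.

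HLA-C took most of the heavy chain reads of the group in every library. Of the reads on HLA-B, HLA-C, HLA-E, HLA-F and HLA-G, HLA-C took 76.0% to 84.6% of a library and HLA-B 15.4% to 24.05%. HLA-E and HLA-G took none. The highest shares of HLA-B, 23.1% and 24.05%, were in the DU145-pc3.1 libraries with DY131, and the lowest, 15.4%, was in DU145-Esrrb replicate 1 without DY131.

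Since reads may be exchanged between these near copies, these 5 genes were also summed before the test, an alternative that was chosen after seeing the data. The sum was at 93.2 and 81.8 cpm in DU145-pc3.1 and at 61.0 and 57.5 cpm in DU145-Esrrb cells without DY131. With DY131 it was at 75.6 and 85.7 cpm in DU145-pc3.1 and at 81.8 cpm in both libraries of DU145-Esrrb cells. It fell with Esrrb by -0.56 ± 0.08 on the log2 scale (edgeR, adjusted p = 0.000736) and rose with DY131 in DU145-Esrrb cells by 0.46 ± 0.08 (edgeR, adjusted p = 0.000202). The interaction passed as well, at 0.58 ± 0.12 (edgeR, adjusted p = 0.00129). This sum does not cover every class I heavy chain gene, so exchange of reads with genes outside it remains a limit on the changes of HLA-B and HLA-C. B2M had 6.76 to 13 reads for each read of the sum, with the highest ratios, 12.5 and 13, in DU145-Esrrb cells without DY131.

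Some of the genes that load peptide onto class I molecules fell with Esrrb. Of 7 listed, 6 were tested, and tapasin (TAPBP), which lies in the chromosome 6 interval, had 11 reads in all. Without DY131, 3 of 6 fell and 0 rose, where 4.18% of all tested genes changed and 2.50% fell. The 3 were ERAP2 by -1.05 ± 0.09 (edgeR, adjusted p = 6.88e-06), ERAP1 by -0.58 ± 0.08 and CANX by -0.30 ± 0.06 on the log2 scale. ERAP1 and ERAP2 are the aminopeptidases that trim peptides to the length the heavy chain holds, and CANX encodes calnexin, the chaperone of the free heavy chain. ERAP2 was at 84.1 ± 2.64 cpm in DU145-pc3.1 and 40.6 ± 0.303 cpm in DU145-Esrrb cells (SD, n = 2 each). The median log2 fold change of the 6 was -0.28 and that of all tested genes 0.0012.

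With DY131, ERAP2 rose in DU145-pc3.1 and fell in DU145-Esrrb cells by edgeR's test. It was the one gene of this list that passed that test in both pools. In DU145-pc3.1 cells CANX, ERAP1 and ERAP2 rose by 0.45 ± 0.06, 0.40 ± 0.08 and 0.23 ± 0.08 and 0 of 6 fell, where 37.4% of all tested genes changed. In DU145-Esrrb cells 3 of 6 fell and 0 rose, namely CALR by -0.62 ± 0.05, PDIA3 by -0.44 ± 0.06 and ERAP2 by -0.27 ± 0.11, where 29.5% of all tested genes fell. CALR encodes calreticulin and PDIA3 the disulfide isomerase of the loading complex. The interaction passed for 5 of 6, all toward a lower effect in DU145-Esrrb cells, with a list median of -0.49, where 33.7% of all tested genes passed in either direction. With DY131 present, 5 of 6 were lower in DU145-Esrrb cells, where 25.3% of all tested genes were, and the largest difference was that of ERAP2 at -1.55 ± 0.10 (edgeR, adjusted p = 6.62e-09). With the junction offset these counts were the same. By DESeq2 2 of 6 passed with DY131 in each pool, where edgeR passed 3.

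Proteasome genes outside the interval could be measured, unlike PSMB8 and PSMB9. PSMB10, the third catalytic subunit of the immunoproteasome, was at 7.34 to 10.6 cpm in all libraries and did not pass edgeR's test in any of the 6 comparisons. Per length, it made up 4.26% to 5.97% of the sum of PSMB10 and its constitutive counterpart PSMB7. Of PSMB5, PSMB6 and PSMB7, 0 changed with Esrrb alone or with DY131 in DU145-pc3.1 cells by either test of edgeR or by DESeq2, and 0 had an unadjusted p under 0.05. In these comparisons 4.18% and 37.4% of all tested genes changed, in that order. With DY131 in DU145-Esrrb cells PSMB5 rose by 0.70 ± 0.06 and PSMB7 fell by -0.38 ± 0.07, while PSMB6 differed by -0.05 ± 0.07. With the junction offset PSMB7 differed by 0.17 (edgeR, adjusted p = 0.0557) and PSMB6 rose by 0.31.

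The largest change among the listed genes with DY131 in DU145-Esrrb cells was that of PSME2. PSME1 and PSME2, which form the interferon-inducible cap of the proteasome, fell with DY131 in DU145-Esrrb cells by -1.97 ± 0.10 and -3.82 ± 0.22 (edgeR, adjusted p = 4.58e-10 and 1.69e-09). PSME2 was at 24.9 ± 1.52 cpm without and 1.70 ± 1.11 cpm with DY131 (SD, n = 2 each), and at 28.7 ± 0.284 cpm in DU145-pc3.1 cells with DY131. PSME3, a nuclear activator outside this pathway, rose by 0.78 ± 0.06, and POMP, which helps to assemble the proteasome, fell by -0.51 ± 0.08. Of the 5 genes of this list 0 changed with Esrrb alone by either test of edgeR or by DESeq2, also at an unadjusted p under 0.05. There 4.18% of all tested genes changed. In DU145-pc3.1 cells DY131 raised PSME3 (0.54 ± 0.06) and POMP (0.30 ± 0.07) and lowered PSME1 (-0.22 ± 0.08), which no longer passed with the junction offset (-0.18; edgeR, adjusted p = 0.100). Of the windows of PSME1, 49.2% cross exon junctions, and with the junction offset its change was -1.07, that of PSME2 (33.7%) was -3.37 and that of PSME3 (49.9%) was 1.72.

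Most of the other 11 subunits of the 20S proteasome core also fell. With DY131 in DU145-Esrrb cells 9 fell and 1 rose, the largest falls being PSMA1 by -2.53 ± 0.12, PSMA3 by -1.56 ± 0.09, PSMA5 by -1.04 ± 0.08 and PSMB3 by -0.88 ± 0.07. Of all tested genes 29.5% fell and 29.2% rose there. With the junction offset 5 fell and 2 rose, and PSMA1 changed by -2.21 and PSMA3 by -0.55. With Esrrb alone 0 of the 11 changed by either test of edgeR or by DESeq2, and 2 had an unadjusted p under 0.05. Of all tested genes 4.18% changed there. DY131 raised 2 and lowered 0 in DU145-pc3.1 cells, where 37.4% of all tested genes changed. The interaction passed for 9 of 11 toward a lower and 0 toward a higher effect, where 33.7% of all tested genes passed in either direction. It passed with the junction offset for 6 toward a lower effect and for PSMB1 toward a higher one (0.44; edgeR, adjusted p = 0.00229). Of the windows of PSMA6, 85.6% also occur in another annotated gene, of PSMA2 51.0% and of PSMA1 44.5%, so their values are uncertain.

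**Figure D4:**
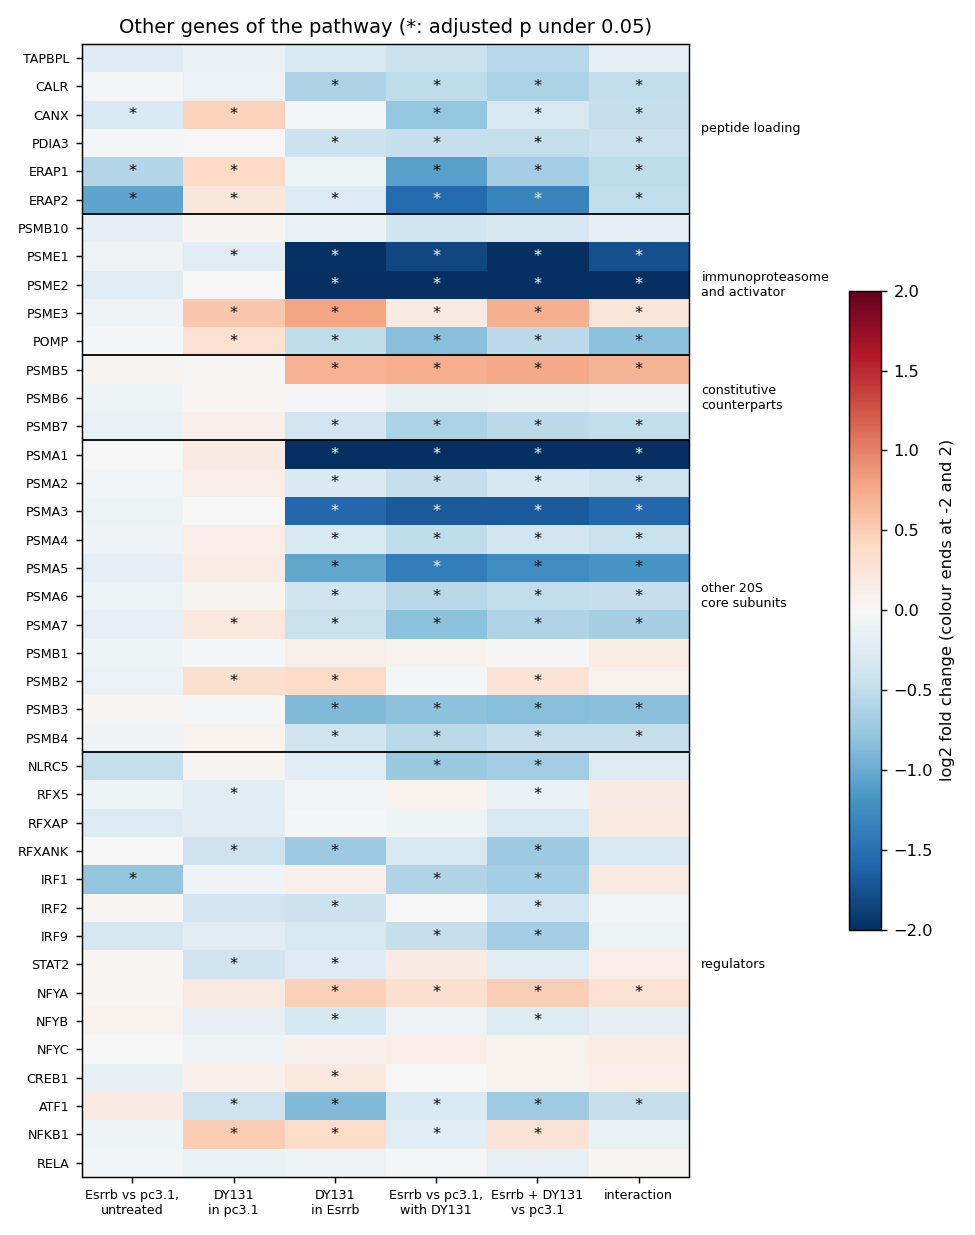
Log2 fold changes (colour, which ends at -2 and 2) of the tested genes of 5 lists of the pathway (rows) in the 6 comparisons (columns); asterisks mark an adjusted p under 0.05. Of 6 peptide loading genes 3 fell with Esrrb alone, most 20S core subunits fell only in comparisons that involve DU145-Esrrb cells with DY131, and PSME2 and PSMA1 changed most.

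Of 15 tested regulators of class I transcription, 1 fell and 0 rose with Esrrb alone, where 4.18% of all tested genes changed and 2.50% fell. The 1 that fell was IRF1, the interferon regulatory factor that acts on class I promoters, by -0.79 ± 0.10 (edgeR, adjusted p = 0.000283). NLRC5, the class I transactivator, differed by -0.48 ± 0.21 (edgeR, adjusted p = 0.280), RFX5 by -0.09 ± 0.05, STAT2 by 0.04 ± 0.10, IRF2 by 0.05 ± 0.14 and IRF9 by -0.36 ± 0.13. IRF1 differed by 0.11 ± 0.11 with DY131 in DU145-Esrrb cells (edgeR, adjusted p = 0.428), where HLA-B and HLA-C rose, and it was lower than in DU145-pc3.1 cells that received DY131, by -0.61 ± 0.11.

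With DY131 in DU145-Esrrb cells 3 of 15 regulators rose and 5 fell, where 29.2% of all tested genes rose and 29.5% fell. NFYA, a subunit of the factor that binds CCAAT, rose by 0.48 ± 0.07 and NFKB1 by 0.37 ± 0.07. ATF1 fell by -0.88 ± 0.09, RFXANK by -0.73 ± 0.12, IRF2 by -0.43 ± 0.15 and STAT2 by -0.26 ± 0.10. NLRC5 differed by -0.22 ± 0.25 and RFX5 by -0.05 ± 0.06 there. By the fit with the junction offset 3 rose and 4 fell. NFKB1 then rose by 0.73, RFXANK fell by -0.31, and STAT2 differed by 0.18 (edgeR, adjusted p = 0.143). In DU145-pc3.1 cells DY131 raised NFKB1 by 0.51 ± 0.07 and lowered 4 others, ATF1, RFXANK, STAT2 and RFX5, where 37.4% of all tested genes changed. The interaction passed for NFYA (0.30 ± 0.10) and ATF1 (-0.47 ± 0.12) of the 15, where 33.7% of all tested genes passed. In DU145-Esrrb cells with DY131 against DU145-pc3.1 cells without, NLRC5 was lower by -0.69 ± 0.24 and IRF9 by -0.68 ± 0.14, and every window of the IRF9 transcript also occurs in another annotated gene. With the junction offset NLRC5 differed by -0.20 there (edgeR, adjusted p = 0.482), and the interaction of NFYA was 0.22 (edgeR, adjusted p = 0.146).

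The genes whose profile was most like that of the tested members were found by Pearson's r over the 8 libraries with the mean centred log2 cpm of HLA-B, HLA-C, B2M and TAP2, among 5882 other genes with at least 8 cpm and an SD of at least 0.2. They were SPNS2 (r = 0.963), DNTTIP1 (0.959), SYK, ZCCHC10 and PQBP1 (0.937 each), MOCS2 (0.932), CCNJL (0.928), PXDN (0.920), SRP19 and TXNDC15 (0.915 each). The members themselves had r = 0.938 for HLA-B, 0.828 for HLA-C and 0.776 for TAP2, and r = -0.018 for B2M. Each of these 4 values is partly fixed by the gene's own part in the mean profile. All of these values describe 8 libraries of 4 groups that share depth and group, and they are not tested.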

How the data were processed

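The authors made TruSeq Stranded mRNA libraries, sequenced them as 50-base single reads, filtered the reads with the FASTX-Toolkit 0.0.13 and mapped them to hg18 with TopHat2. They deposited raw counts per gene, whole numbers from their program MULTICOM-MAP, which were used as deposited. Its handling of strand and of multiply mapped reads is not given in the sources used here.

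Counts of 23391 genes were analysed with edgeR 4.0.16 in R 4.3.3 (quasi-likelihood F test, TMM scaling, Benjamini-Hochberg adjustment). A gene was tested if 2 libraries or more held 1 cpm of it or more, which 13856 did. The 9 members are named, with all genes of the peptide loading and proteasome lists and 6 regulators; of the other lists and regulators at most 4 genes that passed are named in a comparison. The 10 genes with the most similar profile are named as well. The chromosome 6 interval and the genes named from it were chosen after their values were seen. The members and lists were chosen with earlier results of these data known. Columns were matched to groups from the sample descriptions, and the 2 columns of DU145-Esrrb cells with DY131 share a heading, so they are called a and b.

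Lengths, junction shares and shared windows came from GENCODE 29 on GRCh38, not from hg18, with 22018 genes matched by RefSeq identifier and 721 by symbol. Promoters came from RefSeq on GRCh38.p14. Alternatives were the exact test of edgeR, DESeq2 1.42.0 and its size factors, library totals alone, other filters, only the compared libraries, a junction offset, HLA-B, HLA-C, HLA-E, HLA-F and HLA-G summed (chosen after seeing the data), leaving out each library, and the replicate number as a block. Results that need items withheld from this text are not reported here. The steps were tested on simulated counts. Depth was 7858743 to 11551690 reads per library, so 3 reads correspond to 0.260 to 0.382 cpm.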

Additional observations from a re-analysis of the deposited data

Results flagged for a closer look

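The effect of DY131 on HLA-B differed between the 2 pools. It was higher in DU145-Esrrb than in DU145-pc3.1 cells by 0.66 ± 0.19 on the log2 scale (SE; edgeR interaction term, adjusted p = 0.0126), with 0.74 in the first and 0.08 in the second pool. The effect on HLA-C differed as well, by 0.57 ± 0.13 (edgeR, adjusted p = 0.00302), with 0.40 and -0.17. Of all tested genes 33.7% passed this test, and of 17 other tested genes of the chromosome 6 interval 7 passed toward a higher and 3 toward a lower effect. Each group held 2 libraries, so no search for single outlying libraries was made.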

How the results depend on the processing

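Of 2, 0, 3, 1, 1 and 2 tested members called with Esrrb alone, with DY131 in DU145-pc3.1, with DY131 in DU145-Esrrb, between the pools with DY131, between DU145-Esrrb with DY131 and DU145-pc3.1 without, and by the interaction, 0 remained in each when an absolute log2 fold change of 1 was also asked for. DY131 in DU145-pc3.1 cells gave 1 call, of B2M, with library totals alone, with no filter and with 10 or more reads asked of each library. DESeq2 gave 0 calls between the pools with DY131 and 1 for the interaction. The planned sum over all heavy chain genes is not given, and the sum of 5 of them, chosen after seeing the data and standing for HLA-B and HLA-C, left every count as it was.

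Leaving out 1 library at a time gave 1 to 3 calls with Esrrb alone, 0 to 3 with DY131 in DU145-pc3.1, 0 to 1 between the pools with DY131 and 1 to 3 for the interaction. A group left with 1 library was assumed to vary like the others. Log2 fold changes that passed no test and changed sign were those of HLA-B with DY131 in DU145-pc3.1 (-0.12 for the sum, -0.046 to 0.20 leaving out libraries), of HLA-B between the pools with DY131 (0.021 for the sum), of HLA-C there (-0.025 to 0.15), and of TAP2 there (-0.75 to 0.0098). In DU145-Esrrb cells with DY131 against DU145-pc3.1 cells without, HLA-B was at 0.067 and HLA-C at 0.051 with the junction offset, HLA-C ranged from -0.21 to 0.0079 and TAP2 from -0.024 to 0.60. The interaction ranged from -0.36 to 0.055 for B2M, where -0.36 passed the test, and from -0.25 to 0.51 for TAP2. The causes were not tested. Of the other values for single members, 379 kept direction and side of the threshold, 9 lost and 10 gained the call.

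In the 6 libraries whose number is known, a replicate block gave 2 calls with Esrrb alone and 0 with DY131 in DU145-pc3.1 cells, as without it. Same-numbered libraries had correlations of 0.0917, 0.0229 and -0.0685 of their deviations, so they share a number only. TAP2 had at most 26 reads in a library, which limits its value. It lies in the chromosome 6 interval with many genes at 0, and the part of that in its low count was not tested.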

Other observations

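Of 8 tested class I-like genes, 3 fell and 0 rose with DY131 in DU145-pc3.1 cells by edgeR's test. In DU145-Esrrb cells 3 fell and 2 rose. Those that fell are FCGRT, the neonatal Fc receptor that also pairs with B2M, MR1, which presents vitamin metabolites, and ULBP1, a ligand of natural killer cells. Of all tested genes 37.4% changed in the first pool, and 50.5% of these rose. In the second pool 29.5% fell and 29.2% rose, so counts of 3 and 2 in 8 are near the background. FCGRT fell by -1.15 ± 0.12 and -1.14 ± 0.12 (SE), MR1 by -1.35 ± 0.16 and -0.93 ± 0.16, and ULBP1 by -0.96 ± 0.12 and -0.79 ± 0.13 on the log2 scale, the first value being that in DU145-pc3.1 cells. The interaction was 0.01 ± 0.17 for FCGRT, 0.42 ± 0.23 for MR1 and 0.17 ± 0.18 for ULBP1, and it did not pass for any of them. MICA, in the chromosome 6 interval, rose by 1.39 ± 0.15 with DY131 in DU145-Esrrb cells, with an interaction of 1.16 ± 0.23 (edgeR, adjusted p = 0.00142).

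Of 14 class II genes 5 were tested. HLA-DQB1 fell with DY131 in both pools, by -1.20 ± 0.25 in DU145-pc3.1 and -2.48 ± 0.35 in DU145-Esrrb cells, and HLA-DRB1 fell in DU145-pc3.1 cells by -0.86 ± 0.21 and was at 0.01 ± 0.20 in DU145-Esrrb cells. CD74, the invariant chain, fell by -0.39 ± 0.14 in DU145-pc3.1 cells. Of 9 interferon receptor, kinase and feedback genes 0 changed with Esrrb alone by either test of edgeR or by DESeq2, and 1 had an unadjusted p under 0.05. There 4.18% of all tested genes changed. IFNAR1 rose with DY131 in both pools, by 0.36 ± 0.06 in DU145-pc3.1 and 0.32 ± 0.06 in DU145-Esrrb cells, where it was 0.16 with the junction offset (edgeR, adjusted p = 0.0296). IFNAR2 rose by 0.30 ± 0.08 in DU145-pc3.1 and fell by -0.51 ± 0.09 in DU145-Esrrb cells. With the junction offset the latter was -0.20 (edgeR, adjusted p = 0.0519) and did not pass, and 85.4% of its windows also occur in another annotated gene.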
